A study of Mus musculus with 16 samples.

Results

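Mucins are large glycoproteins whose mRNA was measured here in cells of a mouse pancreatic cancer line. The 9 mucin genes Muc1, Muc2, Muc4, Muc5ac, Muc5b, Muc6, Muc13, Muc16 and Muc20 were chosen by name, not by their values. Earlier results of these data were known when the 9 were chosen. The 9 genes were found by gene name in the deposited count table and by the same gene ID in the deposited TPM table. They are 9 of the 54532 genes that each table lists. KPC1199 is a mouse pancreatic cancer cell line; it was grown orthotopically, that is, as tumours in the pancreas, and the cells were sorted from those tumours. Bulk RNA sequencing compared 4 groups of 2 libraries each. In the count table, sorted KPC1199 cells labelled WT for Ly6d were set against sorted KPC1199 cells labelled for overexpression of Ly6d (called overexpression below). In the TPM table, cells sorted for high Ly6d expression were set against cells sorted for low Ly6d expression. Ly6d encodes a small GPI-anchored surface protein.

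All 4 groups are of the 1 line. Labels and protocols do not state the host strain, its age, how Ly6d was overexpressed, whether the overexpressing cells were 1 clone or whether tumours were pooled. Nothing states that the 2 libraries of a group came from separate tumours, so the p-values measure the spread between these libraries, which may be technical. The groups of the count table rest on column names. The WT columns have the names of the sorted WT libraries, which also occur behind a prefix in the names of the WT tumour tissue libraries. The overexpression columns carry a name that the labels use for overexpression tumour tissue. That these 4 columns are sorted cells and not tissue was therefore not tested. The 8 tissue samples were not analysed here. The 2 tables share no library, and they were normalized separately, so levels are not compared between them.

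Mucins fall into 2 families. Gel-forming mucins (Muc2, Muc5ac, Muc5b and Muc6) are secreted, polymerise through cysteine-rich ends and form mucus gels: Muc2 is the main mucin of intestinal goblet cells, Muc5ac of gastric surface cells and airway goblet cells, Muc5b of airway glands, and Muc6 of gastric gland and duodenal gland cells. Transmembrane mucins (Muc1, Muc4, Muc13, Muc16 and Muc20) stay anchored in the apical membrane and several of them bind or signal with receptor tyrosine kinases: Muc4 binds Erbb2, and MUC20 was described as a partner of the Met receptor. Normal pancreatic acinar cells make little mucin, whereas MUC1, MUC4, MUC5AC and MUC16 are known to appear in pancreatic ductal neoplasia, MUC16 as the carrier of the CA125 antigen.

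Coding exons of mucins hold tandem repeats rich in serine, threonine and proline codons, to whose products O-glycans are attached. Reads from such repeats can map to several places, so the share of repeated sequence bears on how each gene was counted. In the longest coding transcript of GENCODE M21 (GRCm38), the share of 50-base windows that occur more than once was 23.2% in Muc5ac, 21.9% in Muc5b, 14.2% in Muc13, 12.7% in Muc6, 10.1% in Muc4, 2.06% in Muc16 and 1.28% in Muc1. It was 0% in Muc20. It was also 0% in Muc2, but the longest coding transcript of Muc2 there has 2926 bases against a listed gene length of 7127 bases, so this value covers only a part of the gene. How the authors counted reads with several places is not given here. Repeated sequence of a gel-forming and of a transmembrane mucin is shown for Muc5ac and Muc13. These had the highest measured share in their families, with Muc2 covered only in part. The Muc5ac stretch is 96 bases long and lies at chr7:141808649-141808744 on the plus strand in coding exon 31 of 49. It is made of 2 copies of a 48-base unit that differ from each other at 1 base, and the whole stretch is found without a change at 3 places of the transcript, 2 of them adjacent. The Muc13 unit is 81 bases long, lies at chr16:33799001-33799081 on the plus strand in coding exon 3 of 13 and stands in 5 tandem copies.
Muc5ac repeat stretch: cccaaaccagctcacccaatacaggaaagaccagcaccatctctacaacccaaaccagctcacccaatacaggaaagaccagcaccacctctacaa
Muc13 repeat unit: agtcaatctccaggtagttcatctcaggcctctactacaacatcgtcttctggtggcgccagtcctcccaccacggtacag

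The promoters of Muc4 and Muc20 are shown because these genes converge and overlap, and Muc20 was called between Ly6d-high and Ly6d-low cells while Muc4 was not. Promoter sequences were taken from RefSeq for GRCm38.p6, which gave 8 windows for 7 of the 9 members. Muc5ac and Muc5b had no entry. The 250 bases before the start of Muc4 lie at chr16:32735636-32735885 (plus strand) and those of Muc20 at chr16:32797436-32797685 (minus strand). Capitals mark a match to TATAAA, the letters of a minimal core promoter box, in Muc4, 36 bases before the start, and a match to TGTTTAC (forkhead motif) on the opposite strand in Muc20, 248 bases before the start.
Muc4 promoter: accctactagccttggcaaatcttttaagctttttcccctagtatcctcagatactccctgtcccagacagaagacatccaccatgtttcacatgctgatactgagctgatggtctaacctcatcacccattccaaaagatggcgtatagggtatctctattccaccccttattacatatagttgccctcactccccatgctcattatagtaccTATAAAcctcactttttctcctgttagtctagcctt
Muc20 promoter: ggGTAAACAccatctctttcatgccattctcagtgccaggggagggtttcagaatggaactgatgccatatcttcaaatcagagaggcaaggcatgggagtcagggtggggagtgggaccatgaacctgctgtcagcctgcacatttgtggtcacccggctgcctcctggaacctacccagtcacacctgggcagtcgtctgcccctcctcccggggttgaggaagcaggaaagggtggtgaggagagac
In windows of 250 bases before to 50 after the start, TATAAA was found in 13.6% of all 32851 promoters on either strand and in those of Muc1, Muc2 and Muc4. TGTTTAC was in 3.65% of all promoters and only in that of Muc20 among the members. TGACTCA (AP-1) was in 5.20% of all promoters and in both windows of Muc13, GGGCGG (GC box) in 35.7% and in those of Muc1 and Muc2, and CATCCT (ETS core) in 17.2% and in those of Muc13 and Muc2. The motif AGATAAG of GATA factors, in 3.04% of all promoters, was in none of the member windows. The same holds for TGACGTCA, the cAMP response element, in 1.79% of all promoters. No match overlapped another in the member windows, and both strands were searched. A match describes the letters of the window and is no evidence of binding.

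The members lie on 4 chromosomes, and the coordinates in the tables are those of GRCm38 for 9 of 9 members. The gel-forming genes form 1 cluster of 239629 bases on chromosome 7: Muc6 (chr7:141633456-141655319, minus strand), Muc2 (chr7:141690340-141754693, plus), Muc5ac (chr7:141788972-141819231, plus) and Muc5b (chr7:141839070-141873084, plus). Muc4 (chr16:32735886-32782391, plus) and Muc20 (chr16:32777419-32797435, minus) overlap on opposite strands by 4973 bases, of which 627 are exonic in both, 15.6% of the exon bases of Muc20 and 5.33% of those of Muc4. Muc13 (chr16:33794037-33819934, plus) lies 996602 bases beyond Muc20. Muc1 is at chr3:89229057-89233381 (plus) and Muc16 at chr9:18495455-18674530 (minus). No source used here says if counting used the strand, so reads in the exons that Muc4 and Muc20 share cannot be told apart.

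Library totals ran from 15449241 to 18290325 counts in the count table and from 15063975 to 20509539 recovered reads in the TPM table. Ly6d, the gene that defines the groups, was at 1260 and 1066 CPM (counts scaled to a common library total) in WT and at 3380 and 3423 CPM in overexpression. It was at 1.56 and 0.352 TPM in the Ly6d-low libraries and at 697 and 504 TPM in the Ly6d-high libraries, a difference that the sort itself set. The labelled cell type is a pancreatic tumour epithelial line. The 10 epithelial markers (Epcam, keratins and claudins among them) summed to between 13064 and 14749 CPM in the count table and to between 40877 and 60041 TPM in the TPM table, and none was at 0 throughout. Markers of other cells were present beside them. Acinar enzymes and regulators, 20 markers with none at 0 throughout, summed to 23944 and 24361 CPM in WT and to 1778 and 1969 CPM in overexpression, and to between 6525 and 6669 TPM in Ly6d-low and between 15343 and 16798 TPM in Ly6d-high libraries. The 10 fibroblast markers summed to 5256 and 5837 CPM in WT and to 6265 and 6241 CPM in overexpression. In the TPM table they summed to between 395 and 492 TPM. In bulk samples, fewer cells of a type and less RNA per cell cannot be told apart.

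Transmembrane mucins were the most abundant members in every group. Per length (CPM per 1000 bases), Muc1 led in WT at 102 and 114, followed by Muc13 at 44.8 and 45.2 and Muc4 at 20.1 and 22.4. Muc5ac, the first gel-forming mucin in the order, was at 4.27 and 4.74, followed by Muc20 and Muc5b, whose ranges overlapped. Muc2 (0.426 and 0.418), Muc6 (0.342 and 0.366) and Muc16 (0.0733 and 0.0663) closed the order. By mean level, Muc1 stood at the 99.2 percentile of all listed genes and Muc16 at the 63.0 percentile. In overexpression the first 4 places were the same, Muc5b (3.03 and 2.36) stood above Muc20 (0.855 and 0.607), and Muc6, Muc2 and Muc16 overlapped at the end. In the Ly6d-low libraries the order by TPM was Muc1, Muc13, Muc4, Muc20, Muc5ac, Muc5b, Muc6, Muc2 and Muc16, with no overlap between neighbours. The Ly6d-high libraries had Muc20 above Muc4, and at the end Muc16 and Muc2, whose ranges overlapped, stood in the other order. In both groups Muc2 and Muc16 had at most 2 reads in a library, so their order is not resolved. Neighbours in the remaining places did not overlap between the 2 libraries of a group, which is a description of 2 values each.

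**Figure D1:**
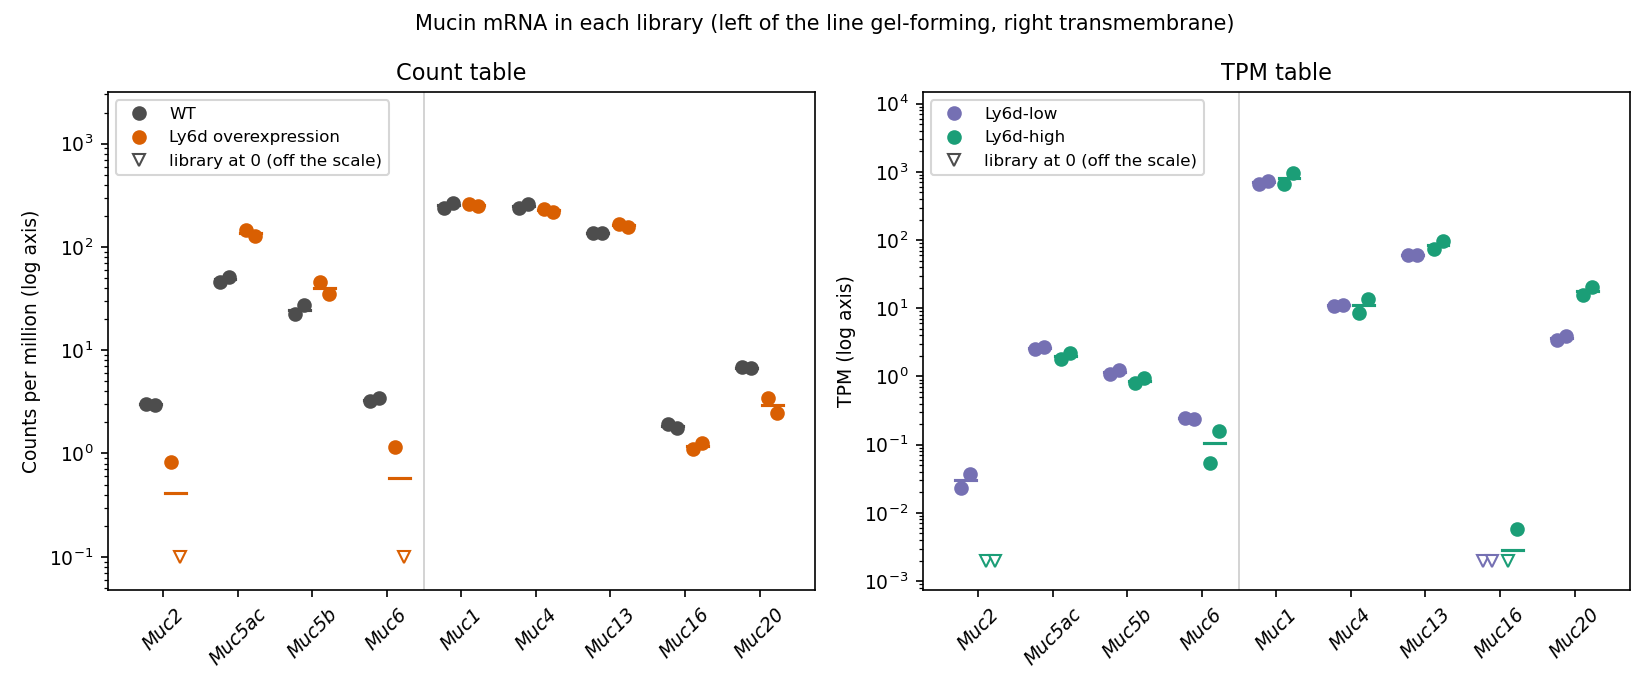
Level of each of the 9 mucin mRNAs in each library (points) with the group mean (bar), in CPM for WT and overexpression on the left and in TPM for Ly6d-low and Ly6d-high on the right, both on a log axis. Open triangles mark libraries at 0, which have no place on a log axis. Muc5ac and Muc5b were higher in both overexpression libraries than in both WT libraries, and Muc20 in both Ly6d-high libraries than in both Ly6d-low libraries.

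The first comparison asked how mucin expression differs between the overexpression and the WT libraries. Muc5ac and Muc5b were higher in overexpression, and none of the 9 mucins was called lower. All 9 were tested by edgeR's quasi-likelihood test over 15771 genes, at an adjusted p under 0.05, and 2 of 9 were called higher. Of all genes tested, 4.16% were called, 2.32% higher and 1.84% lower. Muc2 and Muc6 passed the filter on low counts through the WT libraries, where they were higher. Both mucins called are gel-forming, so 2 of 4 gel-forming and 0 of 5 transmembrane members were called. The median log2 fold change was -0.16 over the 5 transmembrane members and -0.0012 over all genes tested. That over the 4 gel-forming members, -0.92, lies between the 2 members called higher and the 2 low members. It describes neither pair, and Muc2 and Muc6 entered it through the WT libraries, so it is no direction of the family.

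Muc5ac was at 45.9 and 51.0 CPM in WT (832 and 788 counts) and at 147 and 128 CPM in overexpression (2693 and 2303 counts). Both overexpression libraries were above both WT libraries, and the means differed 2.84-fold (48.5 ± 3.58 against 138 ± 13.6 CPM, SD, n = 2). The log2 fold change was 1.49 ± 0.10 (SE; edgeR adjusted p = 2.68e-06), and Muc5ac was called in 9 of 9 alternative settings. Muc5b, its neighbour downstream, was at 22.2 and 27.3 CPM in WT and at 45.3 and 35.3 CPM in overexpression. The groups did not overlap here either, and the log2 fold change was 0.69 ± 0.16 (edgeR adjusted p = 0.0334). The Muc5b call was lost without WT replicate 1 (edgeR adjusted p = 0.132). Per length, Muc5ac exceeded Muc5b 2.88-fold and 2.60-fold in WT and 4.53-fold and 5.04-fold in overexpression, a shift within each library that no test was run on.

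The other gel-forming mucins were near the limit of detection in overexpression. Muc2 had 55 and 46 counts in WT (3.04 and 2.98 CPM) and 15 and 0 counts in overexpression. Its log2 fold change of -2.87 ± 0.96 did not pass (edgeR adjusted p = 0.138). Muc6 had 58 and 53 counts in WT (3.20 and 3.43 CPM) and 21 and 0 counts in overexpression, a log2 fold change of -2.53 ± 0.94 (edgeR adjusted p = 0.188). The overexpression libraries stood apart from each other for both genes, and a count of 0 in replicate 2 allows up to 0.167 CPM, for counting error only. The result depends on these libraries: without overexpression replicate 1, Muc2 and Muc6 were called lower (edgeR adjusted p = 0.000164 and 8.08e-05), with fitted log2 fold changes of -8.70 and -8.84 that set WT against a lone library at 0 and measure no size. Without replicate 2 the log2 fold changes were -1.89 for Muc2, which was called (edgeR adjusted p = 0.0495), and -1.55 for Muc6, which was not (0.0764).

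Among transmembrane mucins no difference passed the test. Muc1, a mucin of most glandular epithelia, was at 240.2 and 267 CPM in WT and at 263 and 247 CPM in overexpression. The overexpression values lay within the WT range (log2 fold change -0.01 ± 0.07, edgeR adjusted p = 0.971). Muc4 was at 236 and 263 CPM in WT and at 234 and 217 CPM in overexpression (-0.16 ± 0.08, adjusted p = 0.304). Muc13, a mucin of intestinal and gastric epithelium, was at 136 and 137 CPM in WT and at 167 and 157 CPM in overexpression. Its libraries did not overlap, and the log2 fold change of 0.23 ± 0.07 did not pass (adjusted p = 0.108). Muc20 was at 6.85 and 6.73 CPM in WT and at 3.44 and 2.44 CPM in overexpression, the lowest ratio among the transmembrane members (2.94 ± 0.707 against 6.79 ± 0.0819 CPM, SD, n = 2). This difference of -1.22 ± 0.33 did not pass (edgeR adjusted p = 0.0678), and it was called lower without overexpression replicate 1 (adjusted p = 0.00612). Muc16 had 35 and 27 counts in WT and 20 and 23 in overexpression (-0.65 ± 0.61, adjusted p = 0.655). Summed over the 5 transmembrane members, the levels were 621 and 676 CPM in WT and 668 and 625 CPM in overexpression, and summed over the 4 gel-forming members 74.4 and 84.7 CPM in WT and 194 and 163 CPM in overexpression.

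Markers of other cells also differed in this comparison. The acinar list was lower for 19 of 19 markers tested, the islet list for 9 of 10 and the endothelial list for 6 of 10. Higher were 6 of 8 neutrophil, 6 of 10 macrophage, 4 of 6 plasma and B cell and 2 of 10 fibroblast markers, while 0 of 2 T cell and 0 of 10 mesothelial markers were called. Of the gastric pit and neck list, 0 of 9 markers tested were higher and 1 lower (Tff2). The goblet list had 2 of 8 higher (Fcgbp and Ccl6) and 1 lower (Zg16, also in the acinar list). The tuft list had 1 of 6 higher. Over all genes tested, the share called was 4.16%, 2.32% higher and 1.84% lower. The gastric list summed to 270 and 263 CPM in WT and to 245 and 248 CPM in overexpression, with no marker at 0 throughout, and the goblet list to 503 and 481 CPM in WT and to 269 and 280.2 CPM in overexpression, with 1 marker at 0 throughout. The epithelial list had 1 of 10 higher (Lgals4) and 1 lower (Cldn4). Their part in the mucin results was not tested.

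The second comparison asked how mucin expression differs between cells sorted for high and for low Ly6d. Muc20 was higher in Ly6d-high cells, and no other mucin passed the test in either direction. Of the 9 members 6 reached 1 TPM in at least 2 libraries and were tested by limma on log2(TPM + 1), a scale that understates changes of low genes, and 1 was called, higher. Of all 14625 genes tested, 9.81% were called, 8.64% higher and 1.17% lower. With TMM factors 6.48% were called, 4.8% higher and 1.68% lower. With edgeR on reads recovered from the TPM 11.9% of 15275 genes were called, 8.01% higher and 3.87% lower. The share of calls that were higher was 88.1%, 74.1% and 67.4% in these 3 fits. The median difference over all genes was 0.25 without further scaling, 0.01 with TMM factors and 0.01 on recovered reads. Relative to that 0.25, Muc20 was at 1.78, Muc13 at 0.22 and Muc1 at -0.06. Muc4 was at -0.26, Muc5ac at -0.51 and Muc5b at -0.46 on the same scale. The limma differences of other genes are given without this subtraction.

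Muc20 was at 3.45 and 3.87 TPM in Ly6d-low cells (84 and 119 recovered reads) and at 15.5 and 20.7 TPM in Ly6d-high cells (500 and 554 reads). Both Ly6d-high libraries were far above both Ly6d-low libraries, and the means differed 4.94-fold (18.1 ± 3.68 against 3.66 ± 0.293 TPM, SD, n = 2). The log2 difference was 2.02 ± 0.20 (SE; limma adjusted p = 0.00115), 1.78 relative to the median of all genes. On recovered reads it was 1.995 ± 0.15 (edgeR adjusted p = 0.000323), and Muc20 was called in 9 of 9 alternative settings. Its overlapping neighbour Muc4 was at 10.8 and 11.2 TPM in Ly6d-low and at 8.64 and 13.5 TPM in Ly6d-high cells. The Ly6d-high values of Muc4 enclosed the Ly6d-low values (-0.02 ± 0.22, limma adjusted p = 0.959). Muc20 was at 0.319 and 0.346 of the level of Muc4 in the Ly6d-low libraries and at 1.79 and 1.53 of it in the Ly6d-high libraries. In the count table these ratios per length were 0.0848 and 0.0747 in WT and 0.0430 and 0.0328 in overexpression.

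**Figure D2:**
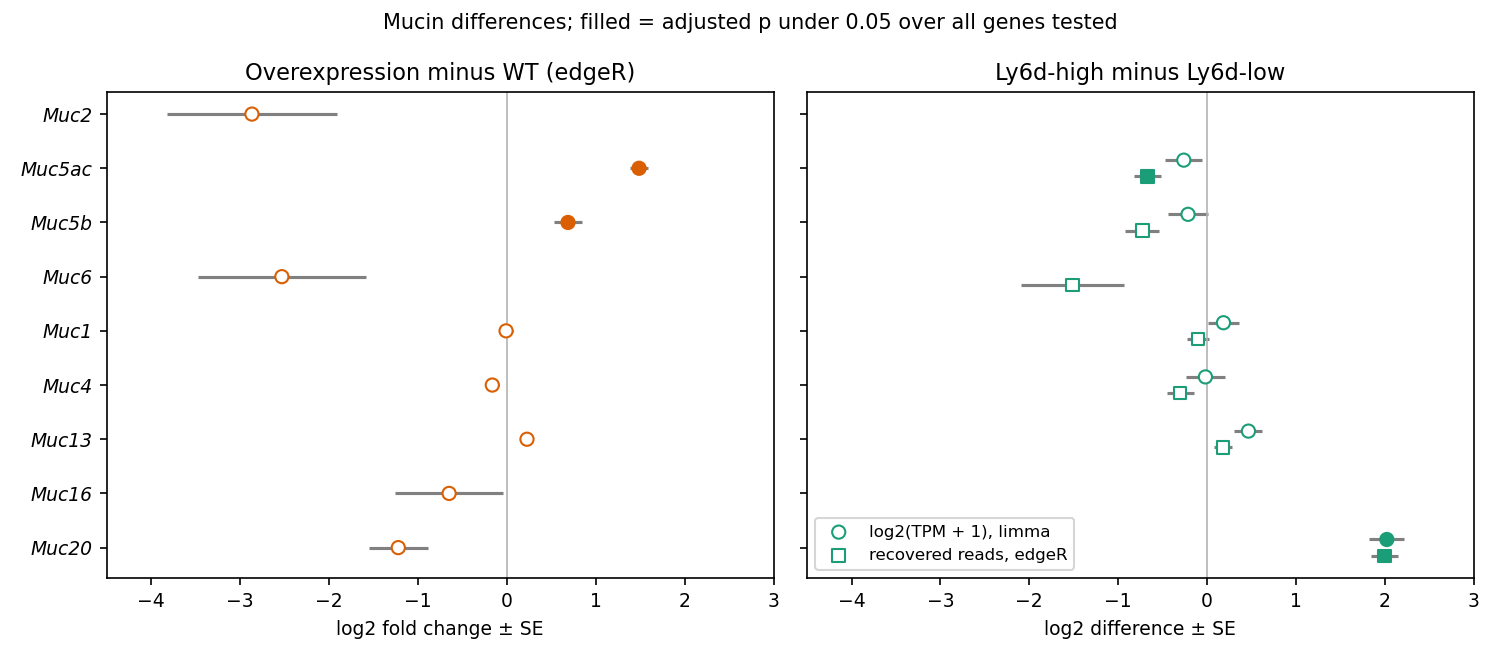
Difference of each mucin (point) with its SE (line), on the left the edgeR log2 fold change of overexpression minus WT and on the right Ly6d-high minus Ly6d-low, as limma difference of log2(TPM + 1) (circles) and as edgeR log2 fold change on recovered reads (squares). Filled points have an adjusted p under 0.05 over all genes tested: Muc5ac (1.49) and Muc5b (0.69) on the left, and on the right Muc20 in both fits (2.02 and 1.995) and Muc5ac on recovered reads only (-0.67).

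The other transmembrane mucins did not pass. Muc1 was at 673 and 730.1 TPM in Ly6d-low and at 658 and 964 TPM in Ly6d-high cells, which enclosed the Ly6d-low range (0.18 ± 0.18, limma adjusted p = 0.496). The sign of the Muc1 difference turned with TMM factors (-0.09) and on recovered reads (-0.10). Muc13 was at 61.4 and 61.0 TPM in Ly6d-low and at 75.0 and 96.1 TPM in Ly6d-high cells. Its groups did not overlap, and the difference of 0.47 ± 0.16 (limma adjusted p = 0.106) was 0.22 relative to the median of all genes. Without Ly6d-high replicate 1, Muc1 and Muc13 were called higher (limma adjusted p = 0.00394 and 0.00249). Muc16 gave 0 reads in both Ly6d-low libraries and 0 and 1 in the Ly6d-high libraries and was not tested. A count of 0 allows up to 0.0188 and 0.0149 TPM in Ly6d-low replicates 1 and 2 and 0.0142 TPM in Ly6d-high replicate 1.

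Gel-forming mucins were low in these libraries. Muc5ac was at 2.56 and 2.68 TPM in Ly6d-low cells (166 and 220 reads) and at 1.82 and 2.22 TPM in Ly6d-high cells (157 and 159 reads). The Ly6d-high values lay below the Ly6d-low values, and the difference of -0.26 ± 0.21 did not pass (limma adjusted p = 0.409). With TMM factors it was -0.46 and with a pseudocount of 0.1 it was -0.36, and neither passed (limma adjusted p = 0.131 and 0.398). On recovered reads Muc5ac was called lower at -0.67 ± 0.15 (edgeR adjusted p = 0.0319). Muc5b was at 1.07 and 1.25 TPM in Ly6d-low and at 0.792 and 0.935 TPM in Ly6d-high cells, and it passed the filter only through the Ly6d-low libraries. Its difference did not pass in either fit (-0.21 ± 0.23, limma adjusted p = 0.541; -0.73 ± 0.19 on recovered reads, edgeR adjusted p = 0.0529). The ratio of Muc5ac to Muc5b was 2.38 and 2.14 in Ly6d-low and 2.30 and 2.38 in Ly6d-high libraries, with overlapping ranges. Muc6 was at 0.248 and 0.238 TPM in Ly6d-low and at 0.0533 and 0.161 TPM in Ly6d-high cells, under the filter for limma. On recovered reads its difference was -1.51 ± 0.58 (edgeR adjusted p = 0.138). Muc2 gave 1 and 2 reads in Ly6d-low and 0 in both Ly6d-high libraries, where a count of 0 allows up to 0.0525 and 0.0633 TPM. No fold is given for Muc2 or Muc16.

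In this comparison too, markers of other cells differed. Higher in Ly6d-high cells were 15 of 19 acinar, 5 of 8 macrophage, 5 of 6 plasma and B cell, 1 of 2 neutrophil, 1 of 2 T cell, 1 of 9 fibroblast and 2 of 5 tuft markers. Lower were 4 of 8 islet and 6 of 10 epithelial markers (Krt7, Krt8, Krt18, Krt19, Lgals4 and Tspan8), while Cldn4 and Cldn7 were higher. Of the mesothelial list 1 of 6 was higher and 1 lower (Krt19, also in the epithelial list), and 0 of 7 endothelial markers were called. The gastric pit and neck list had 1 of 9 higher (Tff2) and 2 lower (Gkn1 and Gkn2) and summed to 625 and 636 TPM in Ly6d-low and to 534 and 529.9 TPM in Ly6d-high cells, with 1 marker at 0 throughout. The goblet list had 2 of 7 higher (Spink4 and Ccl6) and 1 lower (Spdef) and summed to 131 and 118 TPM in Ly6d-low and to 230.2 and 150.2 TPM in Ly6d-high cells, with none at 0 throughout. Over all genes tested by limma, 8.64% were called higher and 1.17% lower. With TMM factors these shares were 4.8% and 1.68%, and on recovered reads 8.01% and 3.87%. The scaling moved several of the marker counts. With TMM factors 9 of 19 acinar markers were higher, 2 of 10 epithelial markers lower and 2 higher, 4 of 9 gastric markers lower, 1 of 7 goblet markers higher, and no fibroblast or mesothelial marker was called. With edgeR on recovered reads 13 of 20 acinar markers were higher and 1 lower, 7 of 10 epithelial and 6 of 9 islet markers lower, 4 of 9 gastric markers lower, 1 of 8 goblet markers higher, 2 of 8 mesothelial markers lower, and no T cell or fibroblast marker was called. Their part in the Muc20 result was not tested.

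The genes beside the mucins were looked at by their position. Of 30 protein-coding genes within 100 kb of a member, 25 were tested between overexpression and WT, and 1 was called, against 4.16% of all genes. This was Efna1, an ephrin ligand near Muc1, which went from 58.5 and 51.3 CPM to 81.4 and 72.1 CPM (log2 fold change 0.47 ± 0.10, edgeR adjusted p = 0.0281, and 0.139 without WT replicate 2). None of the genes around the chromosome 7 cluster or around Muc4 and Muc20 was called. Between Ly6d-high and Ly6d-low cells 23 were tested and 2 called higher, against 8.64% of all genes. Neither count stood apart from its background. These were Trim46, an axonal microtubule protein gene near Muc1, from 3.23 and 4.62 TPM to 8.85 and 9.68 TPM (1.07 ± 0.21, limma adjusted p = 0.0209), and Heg1, a cell surface mucin-like protein near Muc13, from 3.55 and 4.45 TPM to 7.77 and 10.5 TPM (1.01 ± 0.21, limma adjusted p = 0.0292). With TMM factors neither passed (limma adjusted p = 0.0598 for Trim46 and 0.0539 for Heg1), and without Ly6d-low replicate 1 neither did (0.251 and 0.237).

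**Figure D3:**
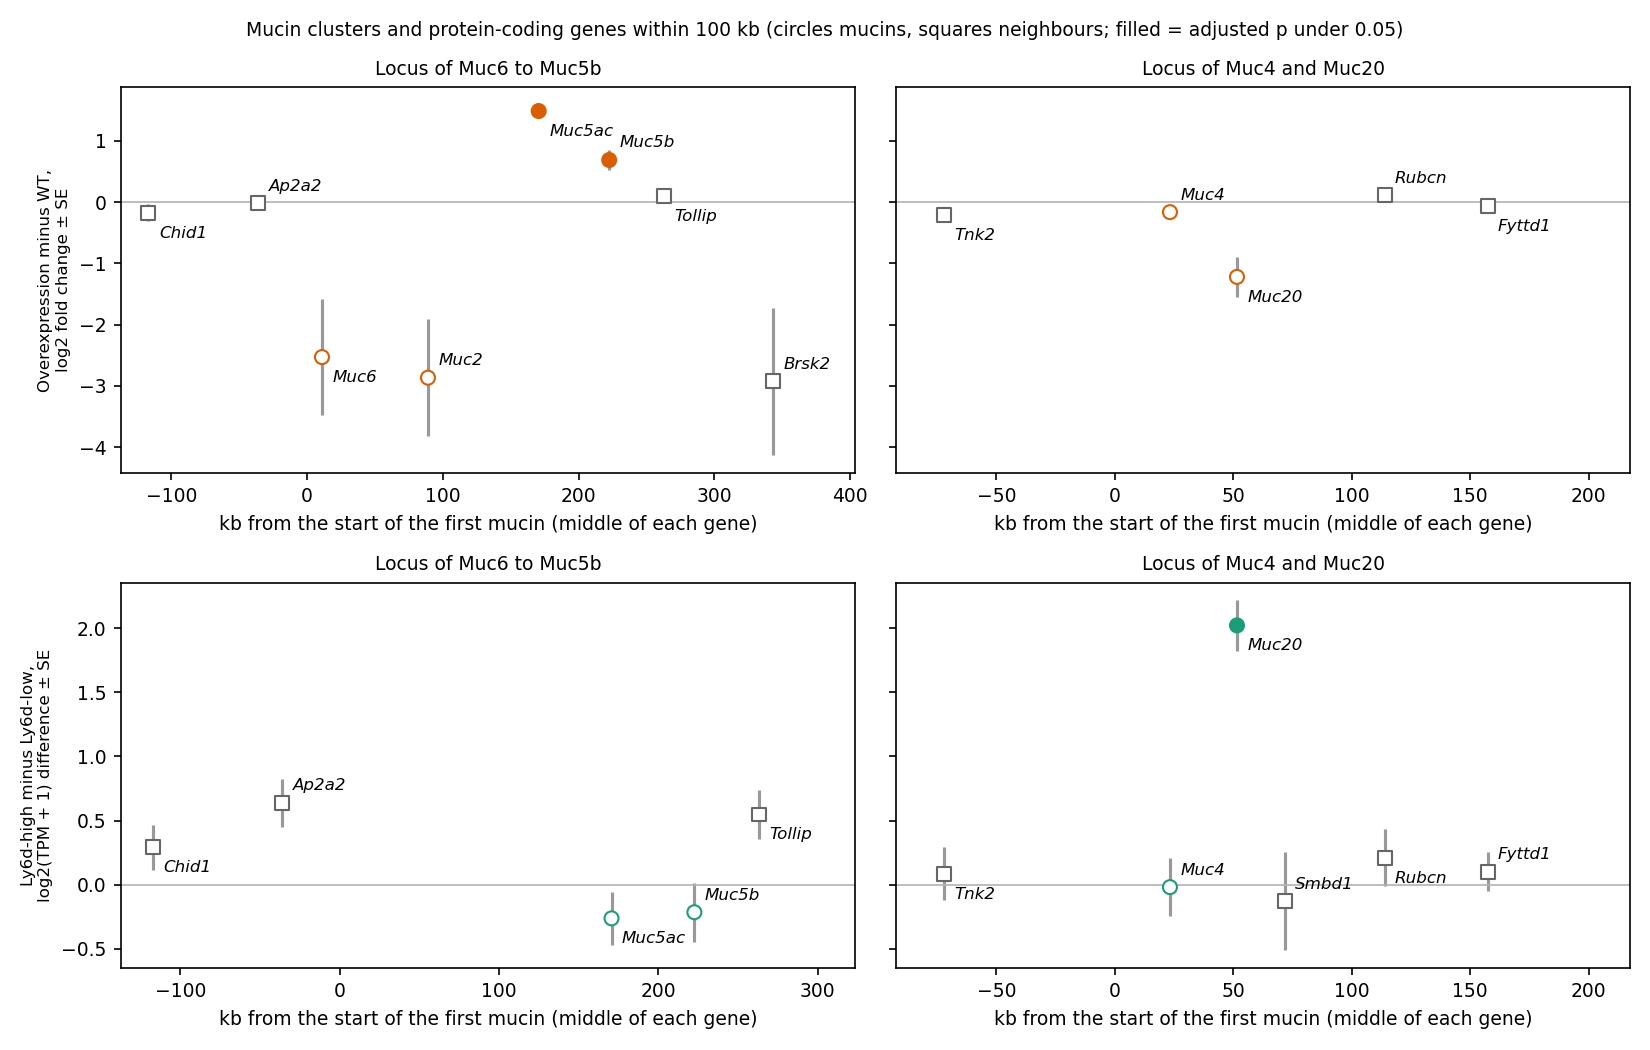
Differences (y axis, with SE) of tested mucins (circles) and tested protein-coding neighbours within 100 kb (squares) against the distance of each gene's middle from the start of the first mucin of the locus in kb (x axis), for overexpression minus WT (top, edgeR) and Ly6d-high minus Ly6d-low (bottom, limma). Filled points passed the test: Muc5ac and Muc5b among their neighbours at the top left, and Muc20 but not the overlapping Muc4 at the bottom right.

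Mucins depend on a pathway of O-glycosyltransferases, of folding and packaging factors in the secretory route, and of transcription factors, which was described from 7 lists with 122 genes in the tables. Between overexpression and WT, 97 of them were tested, and 4 were higher and 5 lower (9.28%, against 4.16% of all genes). Their median log2 fold change was 0.02. Between Ly6d-high and Ly6d-low cells, 86 were tested, and 14 were higher and 4 lower (20.9%, against 9.81% of all genes). Their median difference was 0.17, under the 0.25 of all genes. The lists were chosen with earlier results of these data known, so these shares describe the lists and are no test of them.

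In overexpression the largest fold changes among the called genes of the pathway were in proteins secreted along with mucins. Of 23 tested genes of mucus assembly and cargo, 1 was higher and 3 lower, against 2.32% and 1.84% of all genes tested. Zg16, a lectin packaged in zymogen and goblet granules, went from 325 and 295 CPM to 24.3 and 31.9 CPM (-3.48 ± 0.12, edgeR adjusted p = 2.62e-09), and Tff2, the trefoil factor secreted with Muc6, from 87.9 and 80.3 CPM to 19.0 and 17.6 CPM (-2.22 ± 0.11, adjusted p = 1.36e-07). Pigr, the receptor that carries IgA into secretions, fell by 0.59 on the log2 scale (edgeR adjusted p = 0.000228). Fcgbp, a protein that binds Muc2 in mucus, rose by 0.36 ± 0.08 (edgeR adjusted p = 0.0281), a call lost without WT replicate 1 (0.191) and without overexpression replicate 2 (0.0503). Zg16 is also an acinar marker, and the acinar list as a whole was lower in these libraries, at 1778 and 1969 CPM against 23944 and 24361 CPM.

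The enzymes that start O-glycans had 1 of 13 tested genes higher and 1 lower. Over all genes tested, 2.32% were higher and 1.84% lower, and whether any list differed from these shares was not tested. Galnt7 rose from 87.9 and 95.5 CPM to 122 and 113 CPM (0.34 ± 0.08, edgeR adjusted p = 0.0448), and Galnt3 fell from 69.6 and 70.7 CPM to 54.1 and 48.8 CPM (-0.47 ± 0.10, adjusted p = 0.0221). Without WT replicate 1 the Galnt7 call was lost (edgeR adjusted p = 0.290), as it was without overexpression replicate 1 (0.0815), with upper-quartile scaling (0.0546) and with DESeq2 (0.0525). Without WT replicate 2 the Galnt3 call was lost (edgeR adjusted p = 0.0754). None of 17 tested enzymes of O-glycan extension and none of 8 ion and water transport genes was called. Of 16 transcription factors 1 was higher, the epithelial ETS factor Elf3 (0.27 ± 0.06, edgeR adjusted p = 0.0357), which failed without WT replicate 1 (0.0570), without either overexpression replicate (0.0642 and 0.132) and with upper-quartile scaling (0.0519). Of 13 sheddases, receptors and other partners of transmembrane mucins 1 was higher, the receptor tyrosine kinase Erbb3, from 74.1 and 74.9 CPM to 109 and 110.4 CPM (0.54 ± 0.08, edgeR adjusted p = 0.00265). Of 7 other mucin-type genes 1 was lower, the endothelial sialomucin Emcn (-1.09 ± 0.27, edgeR adjusted p = 0.0449). Emcn was not called without either WT replicate (0.0932 and 0.194) or with DESeq2 (0.0752), and the endothelial list summed to 343 and 341 CPM in WT and to 179 and 209.6 CPM in overexpression.

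In Ly6d-high cells several genes of the list of other mucin-type genes were higher. Of 6 tested, 4 were called higher and none lower, 3 with TMM factors and 4 on recovered reads. Over all genes tested, 8.64%, 4.8% and 8.01% were higher in the same fits. Muc3, a transmembrane mucin of enterocytes, was at 40.8 and 47.5 TPM in Ly6d-low and at 104 and 126 TPM in Ly6d-high cells (1.36 ± 0.16, limma adjusted p = 0.00228). Muc3a was at 4.56 and 5.48 TPM in Ly6d-low and at 16.1 and 25.4 TPM in Ly6d-high cells (1.83 ± 0.24, limma adjusted p = 0.00403). The names mark related genes on chromosome 5, and reads shared between them cannot be told apart here. Mcam, in the list but an adhesion molecule and not a mucin, rose by 1.34 ± 0.20 (limma adjusted p = 0.00801). Cd164, a lysosomal and surface sialomucin, rose by 0.76 ± 0.16 (limma adjusted p = 0.0313). Cd164 was the call lost with TMM factors (limma adjusted p = 0.0780), and it was lost without either Ly6d-low replicate too (0.171 and 0.0925). Between overexpression and WT, the log2 fold changes of Muc3 and Muc3a were -0.0049 ± 0.07 and -0.11 ± 0.17 (edgeR adjusted p = 0.983 and 0.809).

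Mucus assembly and cargo genes moved in both directions between Ly6d-high and Ly6d-low cells, 4 of 22 higher and 3 lower, and 3 and 3 with TMM factors and on recovered reads. Over all genes tested by limma, 8.64% were higher and 1.17% lower. Tff2 was at 31.7 and 39.2 TPM in Ly6d-low and at 145 and 114 TPM in Ly6d-high cells (1.84 ± 0.18, limma adjusted p = 0.00103). Xbp1, a transcription factor of the unfolded protein response, rose by 0.99 ± 0.11 (limma adjusted p = 0.00237), Pigr by 0.91 ± 0.16 (adjusted p = 0.0130), and Spink4 was the fourth gene called higher. Agr2, the disulfide isomerase needed to fold gel-forming mucins, fell from 349 and 309 TPM to 140.2 and 98.0 TPM (-1.48 ± 0.18, limma adjusted p = 0.00313). Gkn2, a gastrokine of gastric surface cells, fell by 1.16 on the log2 scale (limma adjusted p = 0.00188), and Gkn1 was also lower. The secretory transcription factor Spdef fell from 8.04 and 6.53 TPM to 3.19 and 3.46 TPM (-0.93 ± 0.19, limma adjusted p = 0.0267), a call lost without either Ly6d-low replicate (0.349 and 0.0789). Between overexpression and WT, the fold changes of Agr2 (0.21 ± 0.12) and Spdef (-0.77 ± 0.33) did not pass (edgeR adjusted p = 0.426 and 0.248).

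Of 15 tested transcription factors, 2 were higher and 1 (Spdef) lower in Ly6d-high cells, 1 and 1 with TMM factors. The shares over all genes were 8.64% higher and 1.17% lower by limma and 4.8% and 1.68% with TMM factors. On recovered reads they were 8.01% and 3.87%. Whether a list differed from these shares was not tested. Gata6, a factor of foregut and pancreas, rose from 10.5 and 11.7 TPM to 22.7 and 30.3 TPM (1.17 ± 0.19, limma adjusted p = 0.0106). Ehf, an epithelial ETS factor, rose by 0.74 ± 0.15 (limma adjusted p = 0.0269), which was lost with TMM factors (0.0542) and without either Ly6d-low replicate (0.313 and 0.153). The extension of O-glycans had 3 of 14 genes higher, the sialyltransferases St3gal4 (0.93 ± 0.13), St6galnac2 (1.20 ± 0.18) and St3gal1 (0.72 ± 0.17), with limma adjusted p = 0.00562, 0.00774 and 0.0411. St3gal1 was lost with TMM factors (limma adjusted p = 0.0717) and without either Ly6d-low replicate (0.526 and 0.268), St6galnac2 without replicate 1 (0.0614) and St3gal4 without replicate 2 (0.0581). None of 8 tested Galnt genes and none of 13 partners was called by limma, and on recovered reads 2 of 9 and 2 of 13 were lower. The water channel Aqp5 was the 1 of 8 transport genes called higher (0.999 ± 0.14, limma adjusted p = 0.00660), which was lost without either Ly6d-low replicate (0.0517 and 0.0617). On recovered reads 1 of 8 transport genes was higher and 1 lower.

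**Figure D4:**
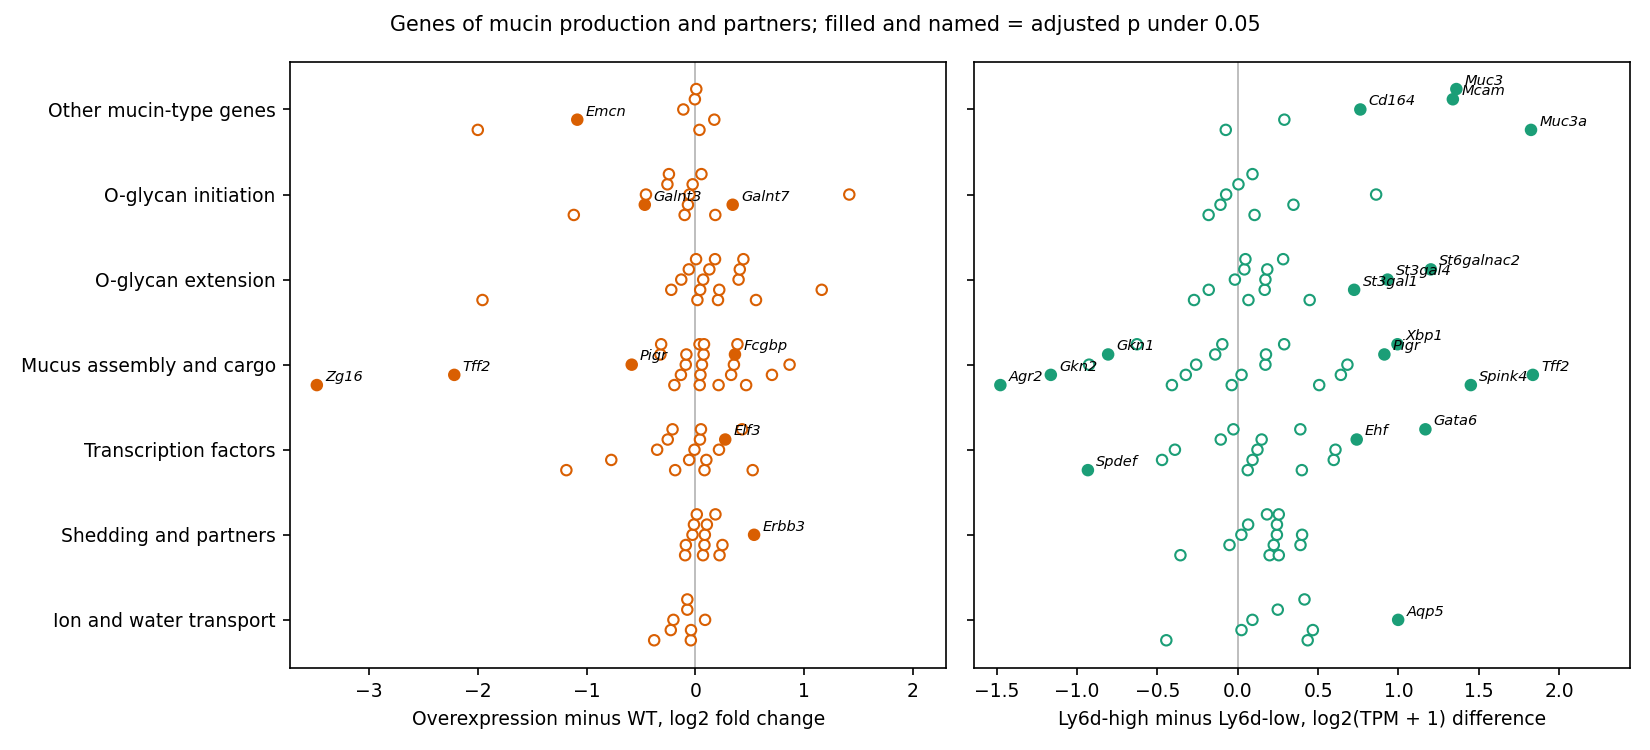
Each point is a tested gene of 1 of 7 lists of mucin production and partners (rows), at its difference between overexpression and WT (left, edgeR log2 fold change) or between Ly6d-high and Ly6d-low (right, limma difference of log2(TPM + 1)). Filled, named points passed the test, 4 higher and 5 lower on the left and 14 higher and 4 lower on the right, where the median of all genes is 0.25.

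Genes whose pattern over the 8 libraries was nearest to a called mucin were sought among 13240 genes tested in both comparisons, by Euclidean distance of log2(CPM + 1) and log2(TPM + 1) centred within each table. For Muc5ac these were Ccrl2, Abca8b and 4930447F24Rik, at distances of 0.694, 0.717 and 0.722, against a median of 1.63 over all genes. Ccrl2, a chemerin-binding receptor, went from 9.28 and 10.5 CPM in WT to 26.0 and 24.3 CPM in overexpression. For Muc5b they were Itm2a (0.239), Ugt2b38 (0.266) and Prdm9 (0.286), against a median of 0.983. None of them was called between overexpression and WT (edgeR adjusted p = 0.301, 0.492 and 0.178). The same held between Ly6d-high and Ly6d-low (limma adjusted p = 0.779, 0.992 and 0.297). For Muc20 the nearest genes were Shtn1 (0.241), Fam234b (0.330) and Rragd (0.405), against a median of 2.11. Shtn1, a gene of neuronal polarity, was at 0.162 and 0.192 TPM in Ly6d-low and at 3.03 and 3.98 TPM in Ly6d-high cells, and at 6.13 and 5.05 CPM in WT and 2.35 and 1.83 CPM in overexpression. Rragd, a Rag GTPase of the lysosome, was at 0 and 0.101 TPM in Ly6d-low and at 3.35 and 4.42 TPM in Ly6d-high cells. Likeness over 8 libraries from 4 groups is a description and rests mainly on the difference between the groups.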

How the data were processed

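The submitters' processing notes name the build mm9 and the tools HISAT2, featureCounts, fastp and DESeq2, with no version of any. The coordinates in the deposited tables are those of GRCm38 and are given as such. The deposited count table holds whole-number counts per gene, and the deposited TPM table holds TPM that the authors computed over the listed gene length; the length column of each deposited table is in bases, a measure other than expression. A further 2 per-sample count columns fit no label and stayed out.

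The count comparison used edgeR 4.0.16 under R 4.3.3 (filterByExpr, TMM, quasi-likelihood test), with SE taken as the log2 fold change over the square root of F. TPM were tested with limma 3.58.1 on log2(TPM + 1), a pseudocount of 1, where a gene reached 1 TPM in at least 2 libraries. Benjamini-Hochberg adjusted p-values over all genes tested had to lie under 0.05. CPM are counts scaled to the library total. The 85643 TPM above 0 came out as whole reads for 100% of values within 0.1 reads, and edgeR on these reads was an alternative, which called 1815 genes. Other alternatives were DESeq2 1.42.0, other scalings, other filters, a pseudocount of 0.1, a replicate block and leaving out each library. With 2 libraries a group, precision rests on spread shared across genes. Scripts were tested on simulated data. Limits from a count of 0 use 3 counts.

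The rule for named genes took all members, Ly6d, up to 4 called genes per pathway list and comparison, called protein-coding neighbours within 100 kb, and the 3 genes nearest to the called mucins with the lowest p; Spink4, Gkn1 and single marker genes were named after their values were seen. The members, the pathway lists and the 13 marker lists were chosen with earlier results of these data known. A gene of the transcription factor list is not reported here. No protein sequences were used here.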

Additional observations from a re-analysis of the deposited data

How the results depend on the processing

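Over the named genes, 183 of 216 values between overexpression and WT and 207 of 246 between Ly6d-high and Ly6d-low kept their direction and their side of the threshold. The 2 calls of mucins in overexpression became 5 with no filter on low counts (Muc2, Muc6 and Muc20 added as lower) and ranged from 1 to 5 when 1 library was left out; genes called went from 656 to 1187 with no filter and from 565 to 1584 when 1 library was left out (1584 without overexpression replicate 1, 1062 without replicate 2). Between Ly6d-high and Ly6d-low the 1 call of a mucin became 2 on recovered reads (Muc5ac added as lower) and ranged from 1 to 3 when 1 library was left out; genes called went from 1435 to 531 with no filter, to 948 with TMM factors and to between 931 and 6710 when 1 library was left out (6710 without Ly6d-high replicate 1). No pairing by replicate number was seen: same-numbered deviations correlated at -0.0101 in the count table and 0.0681 in the TPM table. With 2 libraries a group this cannot exclude that same-numbered libraries share a tumour. With the replicate block, 1 mucin was called in overexpression (Muc5ac; Muc5b at an edgeR adjusted p of 0.0636, and Galnt7, Elf3 and Emcn also lost at 0.0819, 0.0848 and 0.0603) of 459 genes, and 2 in Ly6d-high (Muc13 at a limma adjusted p of 0.0148, and Muc20) of 4179 genes. Signs turned only for mucins that did not pass: Muc1 in overexpression without WT replicate 2 (0.0769) and without overexpression replicate 2 (0.03), and in Ly6d-high with TMM factors (-0.0926), on recovered reads (-0.101) and without Ly6d-high replicate 2 (-0.0913; 0.46 without replicate 1), and Muc4 in Ly6d-high without Ly6d-high replicate 1 (0.28; -0.31 without replicate 2) and without Ly6d-low replicate 2 (0.003395). With no filter on low TPM, 11 named genes no longer passed, Muc3a, Mcam, Gata6 and Pigr among them. Of the 28 named genes, Muc1, Muc4, Muc5ac, Muc5b and Muc13 had not passed with the filter either. Where a library was left out, the lone sample of its group was assumed to vary like the other group. Apart from the fits on fewer genes or samples, the cause was not tested. Depth limits Muc2, Muc6 and Muc16, which had at most 58 counts in a library.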
